A study of Mus musculus with 24 samples.

Results

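Neuropeptides are small signalling peptides that neurons cut from larger precursor proteins, store in dense-core vesicles and release beside fast transmitters. In the spinal cord they come from the central endings of primary afferents, whose cell bodies lie in the dorsal root ganglia, and from neurons of the cord itself, above all interneurons of the dorsal horn. Cutting a peripheral nerve is known to change which peptide genes the damaged afferents use, galanin and neuropeptide Y being the classical examples of induction. The 10 precursor genes described here were taken by name out of 32884 genes in the expression table: Gal, Npy, Adcyap1, Tac1, Calca, Calcb, Sst, Nts, Vip and Cck. All 10 passed the filter on low values, a mean of at least 0.5 FPKM (fragments scaled to transcript length and to library size) over the input libraries, which left 15564 genes to test.

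The tissue was mouse spinal cord. In spared nerve injury, used to model neuropathic pain, the common peroneal and tibial nerves are tied and cut while a further branch of the sciatic nerve is left whole. Injured cords were taken on days 3, 7 and 14, and those of sham mice, whose nerve was only exposed, on day 3. The 4 groups each held 3 input libraries of poly(A) RNA and 3 libraries enriched with an antibody to N6-methyladenosine (m6A), a common mark on mRNA, giving 24 in all. Strain, sex, age, cord segment, side and pooling of animals are not stated in the labels. Days 7 and 14 were compared with a sham of day 3, so time since surgery and injury cannot be told apart there.

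Sham library 3 and day 7 library 3 stood apart from the other 10 input libraries. Over the tested genes their log2 values correlated at 0.925 to 0.942 with those 10, at 0.983 with each other, and the 10 at 0.979 to 0.988 among themselves. The peptide genes were low in both. Of the 10 genes, 9 were lower in sham library 3 than in the mean of sham libraries 1 and 2, with a median ratio of 0.54 against 0.958 for all genes, and 8 were lower in day 7 library 3 than in its 2 partners, with a median of 0.577 against 0.981. Summed FPKM of 9 motor neuron markers was 76.1 and 67.8 in the same libraries, and 123 to 136 in the others, and that of 10 dorsal horn inhibitory neuron markers was 131 and 115, and 146 to 155 in the others. Among the inhibitory markers Slc32a1 spanned 17 to 50.3 FPKM over the 12 libraries, but Gad1 only 15.3 to 18 and Slc6a5 44.3 to 53.7. The sum therefore need not stand for each marker. The 10 dorsal horn excitatory neuron markers summed to 168 and 159 beside 162 to 179, and 6 astrocyte markers were high, at 691 and 833 beside 534 to 637. The part of tissue sampling in these differences was not tested. Differences of the precursor genes from sham are therefore given with all 12 libraries and with the 10. Where these 2 libraries are set aside, libraries of 1 group were very close: among 54 genes of at least 200 FPKM, the gene-to-gene spread of the ratio between partners was 1.21% to 1.68%, and 4.35% to 8.95% between libraries of different groups. Nothing in the labels says that the replicates came from separate mice, and p-values then measure only the spread between these libraries, which may be technical.

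Markers of the labelled tissue were present: 9 of 9 motor neuron, 9 of 10 dorsal horn excitatory, 10 of 10 inhibitory, 6 of 6 astrocyte and 6 of 6 oligodendrocyte markers averaged at least 0.5 FPKM. Of 14 sensory ganglion neuron markers 12 were in the table and 8 of these lay below a mean of 0.5 FPKM. Scn10a, the sodium channel of nociceptors, averaged 0.00256 FPKM, Trpv1 0.0303 and Avil 0.111, while P2rx3 at 0.475 and Pirt at 0.488 lay just below the filter. The summed level of the list was 37.8 to 66.4 FPKM in sham, 69.4 to 71.4 on day 3, 41.3 to 75.1 on day 7 and 65.3 to 65.9 on day 14. Most of it was Prph, at a mean of 43.2, which motor neurons express too, followed by Ret at 17.5, Tlx3 at 1.04 and Isl2 at 0.905. Tlx3 is also on the list of dorsal horn excitatory neurons, so neither it nor Prph marks ganglion neurons alone. Which cells held Ret and Isl2 was not tested. Of these 4 tested markers, limma without the 2 libraries called Ret higher on days 3 and 14 and Prph on day 7. The part of sensory ganglion neurons in the results was not tested. In bulk tissue, fewer cells of a type and less RNA per cell cannot be told apart.

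A feature that most of the genes share lies before their RefSeq start sites. The cyclic AMP response element (CRE), the site through which cyclic AMP and calcium signals drive Sst, Vip and other peptide genes, reads TGACGTCA in full and TGACG in its short form. Promoters of 9 of the 10 genes were matched by symbol in RefSeq (GRCm38.p6); Calcb was not among them. Within 250 bases before the start, and read on both strands, the short form was present in 7 of 9, against 17.8% of 32851 promoters. It was found in Adcyap1, Tac1, Calca, Sst, Nts, Vip and Cck. Gal and Npy, the pair with the widest range of group means below, held no match to it in this window. The full site holds 2 overlapping short forms and was present in Sst alone of the 9, against 1.55% of all promoters. The 30 bases around 1 short form in each gene follow, shown because the site is what these promoters have in common, 5′ to 3′ on the strand of the gene, with the short form in capitals (CGTCA is TGACG read on the opposite strand).
Sst, chr16:23890872-23890901, minus strand: ctccttggctgaCGTCAgagagagagttta
Vip, chr10:5639127-5639156, plus strand: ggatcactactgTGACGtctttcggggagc
Adcyap1, chr17:93198914-93198943, plus strand: ggactaggatgcTGACGtcttttactgata
Calca, chr7:114636405-114636434, minus strand: gaagcacagaggTGACGcaatctgtctggg
Tac1, chr6:7555006-7555035, plus strand: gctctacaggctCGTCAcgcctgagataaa
Cck, chr9:121495724-121495753, minus strand: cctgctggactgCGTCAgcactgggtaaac
Nts, chr10:102490567-102490596, minus strand: attagggaagatCGTCActttccatcaagg

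In Sst the 3 bases before the capitals, tga, complete the full palindrome. Counted from the RefSeq start, the short form shown began at position -43 in Tac1, -45 in Sst, -47 in Cck, -65 in Calca, -79 in Vip and -91 in Adcyap1, and farther off, at -166, in Nts. The expression table places the starts of Sst, Tac1 and Nts farther upstream than RefSeq does. The short form of Nts therefore lies nearer to the start given there. For the same reason 2 of the 7 windows, those of Sst and Tac1, lie inside the gene as that table gives it. The Sst window also overlaps the 5′ UTR peak of Sst described below for days 3 and 14. The other motifs searched were less widely shared. TGANTCA, the AP-1 site, was present in Nts only, against 6.75% of promoters, and TATAAA in Adcyap1 and Vip, against 12.4%. These matches are descriptions of letters and say nothing of what binds there.

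Sst, the precursor of somatostatin, a peptide of excitatory dorsal horn interneurons that is also made by some afferents, was the most abundant of the 10 at a mean of 96.9 FPKM over 12 libraries, above 98.3% of tested genes. Npy followed at 23.6, Calca at 22.2, Cck at 17.5, Nts at 12.2, Gal at 9.66, Adcyap1 at 7.19, Tac1 at 6.04, Calcb at 5.88 and Vip at 0.597. FPKM is a level per length of transcript, so these levels may be set beside each other. Sst exceeded Npy in 12 of 12 libraries and Calcb exceeded Vip in 12 of 12, and in both cases the ranges were apart in every group. Npy and Calca did not keep an order: Npy was the higher in 6 of 12 libraries. Nts was above Gal in 8 of 12, Gal above Adcyap1 in 8 and Tac1 above Calcb in 8. Between Npy and Calcb, each neighbouring pair overlapped in at least 1 group.

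**Figure D1:**
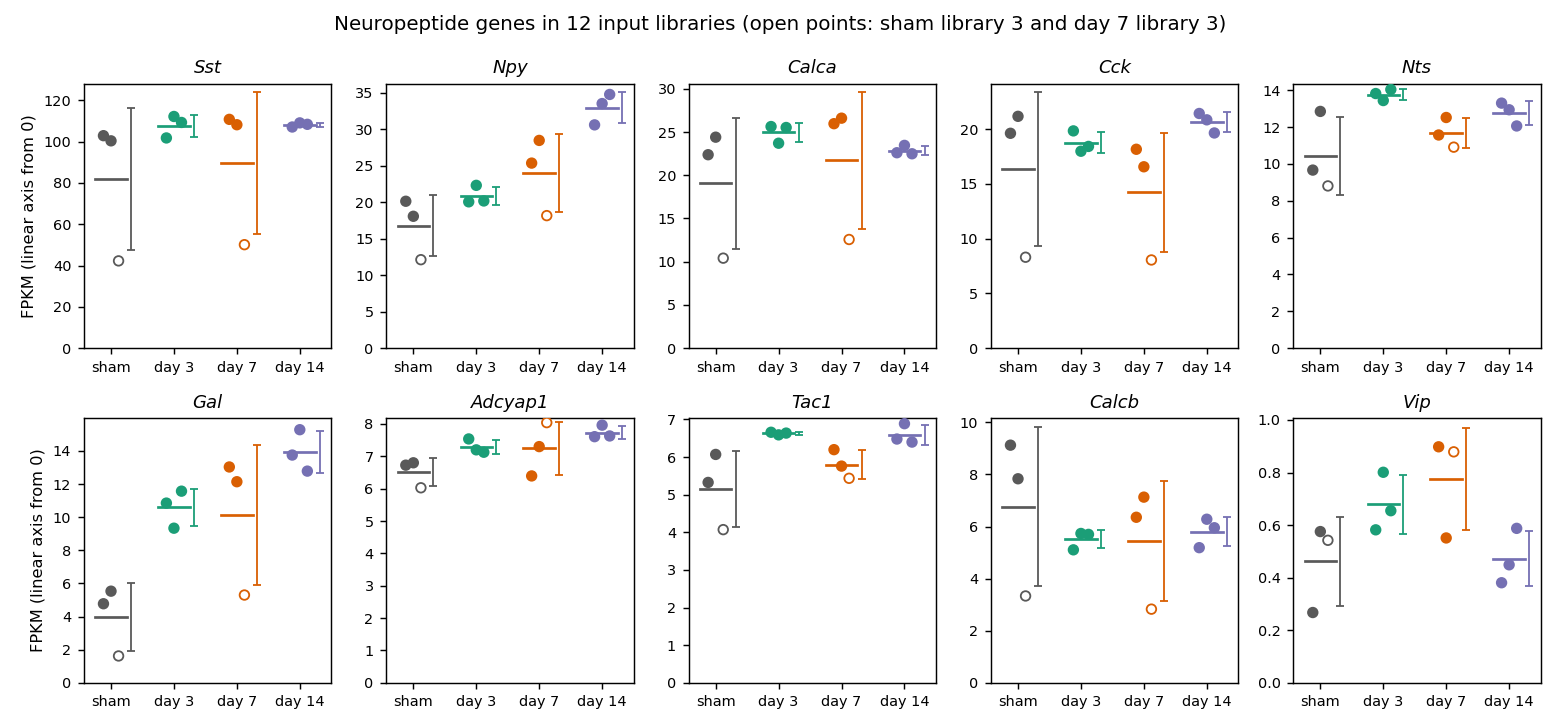
FPKM of each precursor gene in the 12 input libraries, on linear axes from 0, with a point for each library, a line at each group's mean and a bar of 1 SD (n = 3). The open points are sham library 3 and day 7 library 3, which lie lowest in their group for Sst, Npy, Calca, Cck, Gal, Calcb, Nts and Tac1.

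Gal, the precursor of galanin, showed the widest range of group means. It was at 4.77, 5.53 and 1.62 FPKM in sham libraries 1, 2 and 3. On day 3 it was at 10.8, 9.34 and 11.6 FPKM, on day 7 at 13.0, 12.1 and 5.30, and on day 14 at 13.8, 15.3 and 12.8. Every library of days 3 and 14 lay above every sham library, and day 7 library 3 lay just under sham library 2. Group means were 3.98 ± 2.07 FPKM in sham, 10.6 ± 1.14 on day 3, 10.2 ± 4.23 on day 7 and 13.9 ± 1.26 on day 14 (SD, n = 3). On the log2(FPKM + 0.5) scale the difference from sham was 1.44 ± 0.39 (SE) on day 3, 1.29 ± 0.39 on day 7 and 1.82 ± 0.39 on day 14. None passed in limma across all genes, with Benjamini-Hochberg adjusted p = 0.494, 1 and 0.362. In the fit without the 2 libraries, with 2 sham libraries left, Gal was higher on every day: by 0.97 ± 0.10 on day 3, 1.21 ± 0.11 on day 7 and 1.35 ± 0.10 on day 14, with limma adjusted p = 0.00118, 0.00164 and 0.000223. Leaving out sham library 3 alone gave 0.97, 0.82 and 1.35 (adjusted p = 0.584, 0.667 and 0.289), and day 7 library 3 alone 1.44, 1.68 and 1.82 (0.178, 0.309 and 0.121). A further fit kept all 12 libraries but gave less weight to those that deviate from the fit (limma array weights). Gal then passed on each day, at 0.98 ± 0.12, 1.22 ± 0.13 and 1.37 ± 0.12 (limma adjusted p = 0.00131, 0.0011 and 0.000162). These estimates lay close to those without the 2 libraries and are not separate support for them. With the near-identical libraries averaged into 6 samples, Gal did not pass on any day, at 1.67 ± 0.77, 1.33 ± 0.63 and 2.06 ± 0.77 (adjusted p = 0.997, 1 and 1).

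Within the 2 libraries that stood apart the direction was the same. Gal in day 7 library 3 was 1.45 above sham library 3 on the log2 scale, beside 1.21 between the other libraries of these groups. As a ratio to Sst in the same library, Gal was 0.0384 to 0.0551 in the 3 sham libraries and 0.0832 to 0.14 in the 9 injured ones, and the ranges did not overlap. This ratio was chosen after the values were seen and is not tested, and the share of all gene pairs that separate so was not computed.

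Npy, the precursor of neuropeptide Y, which inhibitory dorsal horn interneurons make and large afferents begin to make after axotomy, differed from sham mainly on day 14. It was at 20.1, 18.1 and 12.1 FPKM in sham and at 20.0, 22.3 and 20.2 on day 3. On day 7 it was at 25.4, 28.5 and 18.2 FPKM, and on day 14 at 30.6, 33.5 and 34.8. The day 14 libraries were all above the sham, day 3 and day 7 libraries, while days 3 and 7 overlapped with sham. The difference from sham was 0.33 ± 0.19 on day 3, 0.51 ± 0.19 on day 7 and 0.98 ± 0.19 on day 14 (log2, SE), with limma adjusted p = 0.695, 1 and 0.274. Without the 2 libraries it was 0.12 ± 0.08, 0.48 ± 0.08 and 0.77 ± 0.08, with limma adjusted p = 0.397, 0.0369 and 0.00108. Npy was also higher on day 14 than on day 3 in that fit, by 0.65 ± 0.07 (limma adjusted p = 0.00368). Gal, at 0.38 ± 0.09 in the same comparison, did not pass (adjusted p = 0.0825).

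Calca and Calcb encode the alpha and beta forms of calcitonin gene-related peptide, the vasodilator peptide of nociceptive afferents and of motor neurons; Calca also gives rise to calcitonin. The precursors are close paralogs, and how reads that match both were assigned is not given in the sources used here. Calcb was at 9.13, 7.83 and 3.34 FPKM in sham, 5.11, 5.73 and 5.70 on day 3, 6.36, 7.13 and 2.83 on day 7, and 5.19, 6.28 and 5.95 on day 14. Sham libraries 1 and 2 held the highest values of all, and sham library 3 lay below all libraries but day 7 library 3. With 12 libraries the difference was between -0.27 and -0.10 with SE 0.36, and limma adjusted p was 0.825 on day 3, 1 on day 7 and 0.899 on day 14. Without the 2 libraries Calcb was lower by -0.58 ± 0.09 on day 3 (limma adjusted p = 0.0096) and by -0.51 ± 0.09 on day 14 (0.0213), and did not pass on day 7 at -0.31 ± 0.10 (0.246).

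Calca was at 22.4, 24.4 and 10.4 FPKM in sham, 25.6, 23.7 and 25.5 on day 3, 26.0, 26.6 and 12.6 on day 7, and 22.6, 23.5 and 22.5 on day 14. Apart from the 2 low libraries it kept between 22.4 and 26.6. It passed on no day in either fit; without the 2 libraries its difference from sham was 0.09 ± 0.05, 0.17 ± 0.05 and -0.03 ± 0.05. The ratio of Calcb to Calca within a library was 0.408, 0.321 and 0.320 in sham and 0.199 to 0.268 in the 9 injured libraries, without overlap, and sham library 3 did not stand apart in it. Over all pairs among the 10 genes, 7 of 45 ratios separated sham from injured in this way, 5 of them involving Gal and 3 involving Calcb. These ratios too were chosen after the values were seen, and the share over all pairs of tested genes was not computed. The motor neuron genes Chat, Slc5a7 and Chodl (acetylcholine synthesis, choline uptake and a marker of fast motor neurons) were also lower in the fit without the 2 libraries, by -0.18, -0.45 and -0.30 on day 3 and by -0.22, -0.26 and -0.37 on day 14, with limma adjusted p from 0.000622 to 0.0239. The other 6 of 9 motor neuron markers were not called on these days, and on day 7 Slc5a7 was lower and Prph higher. With all 12 libraries Slc5a7 was the 1 motor neuron marker called, lower on day 3 and in the mean of the injured days. The part of these markers in the level of Calcb was not tested.

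**Figure D2:**
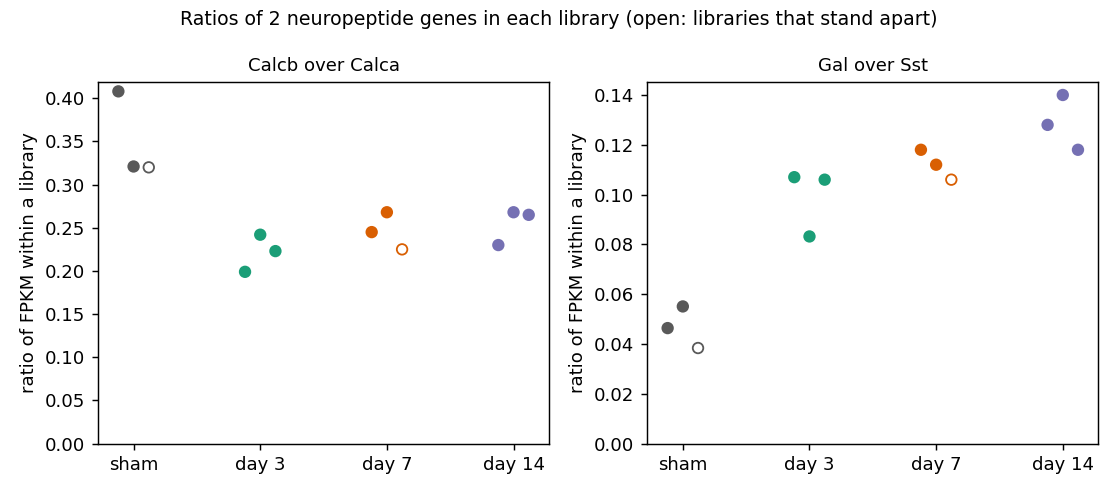
Ratio of Calcb to Calca and of Gal to Sst FPKM within each of the 12 input libraries, as points on linear axes from 0 (open: sham library 3 and day 7 library 3). Sham lies above all injured libraries for Calcb over Calca, at 0.32 to 0.408 against 0.199 to 0.268, and below them for Gal over Sst, at 0.0384 to 0.0551 against 0.0832 to 0.14.

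Tac1, the precursor of substance P and neurokinin A, was at 5.32, 6.07 and 4.07 FPKM in sham, 6.66, 6.59 and 6.64 on day 3, 6.20, 5.76 and 5.43 on day 7, and 6.48, 6.89 and 6.40 on day 14. Days 3 and 14 lay above sham in every library, by a narrow margin over sham library 2. The difference was 0.35 ± 0.12 on day 3 and 0.34 ± 0.12 on day 14 (log2, SE; limma adjusted p = 0.695 and 0.7), and 0.20 ± 0.06 on both days without the 2 libraries (adjusted p = 0.0724 and 0.0997).

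Sst was between 100.4 and 112 FPKM in 10 libraries and at 42.2 and 50.1 in sham library 3 and day 7 library 3. Its difference from sham on day 3 was 0.50 ± 0.36 with 12 libraries and 0.08 ± 0.04 with 10. Cck, the precursor of cholecystokinin, a peptide of excitatory dorsal horn neurons, did likewise: 16.6 to 21.4 FPKM in 10 libraries and 8.30 and 8.05 in sham library 3 and day 7 library 3. Its difference on day 3 was 0.30 ± 0.35 with 12 libraries and -0.12 ± 0.06 with 10. Neither Sst nor Cck passed on any day in either fit.

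Nts, the precursor of neurotensin, a peptide of excitatory interneurons, was at 9.66, 12.9 and 8.80 FPKM in sham, 13.8, 13.4 and 14.0 on day 3, 11.6, 12.5 and 10.9 on day 7, and 13.3, 12.9 and 12.1 on day 14. Day 3 lay above sham in all libraries, at a difference of 0.40 ± 0.12 (limma adjusted p = 0.573) that was 0.29 ± 0.10 without the 2 libraries (adjusted p = 0.125). Adcyap1 encodes PACAP, and Vip the related vasoactive intestinal peptide; in rats both are induced in axotomised afferents. Adcyap1 lay between 6.03 and 6.80 FPKM in sham, 7.13 and 7.54 on day 3, 6.39 and 8.04 on day 7, and 7.61 and 7.96 on day 14. Days 3 and 14 lay above sham in every library, and the day 14 difference was 0.23 ± 0.09 (limma adjusted p = 0.7), or 0.18 ± 0.05 without the 2 libraries (adjusted p = 0.101). Vip stayed under 1 FPKM, from 0.267 in sham library 1 to 0.898 in day 7 library 1. Its difference on day 7, where it was widest, was 0.41 ± 0.17 (limma adjusted p = 1), or 0.42 ± 0.21 without the 2 libraries (0.452), and the groups overlapped.

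**Figure D3:**
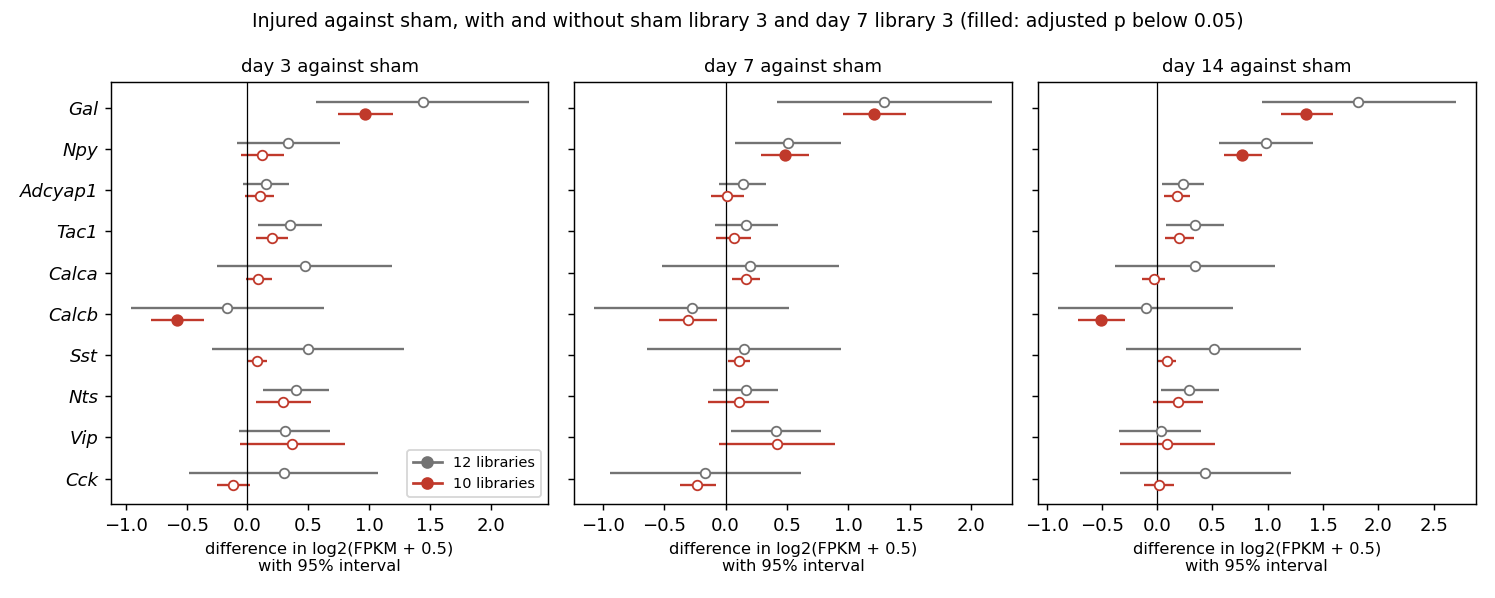
Difference of each precursor gene from sham in log2(FPKM + 0.5) on days 3, 7 and 14, with 95% intervals of the limma fit, for all 12 libraries (grey) and for the 10 left without sham library 3 and day 7 library 3 (red), filled where the adjusted p was below 0.05. Gal on every day, Npy on days 7 and 14 and Calcb on days 3 and 14 are filled in the fit of 10 libraries, and none in that of 12.

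Counted together, 0 of the 10 genes passed with 12 libraries on day 3, 7 or 14 or in the mean of the injured days, where limma called 0.0578%, 0.103%, 0.0514% and 0.129% of all tested genes. At an unadjusted p below 0.05 the count was 3 on day 3, 3 on day 7, 5 on day 14 and 5 in the mean of the days, beside 6.24%, 2.53%, 4.92% and 4.84% of all genes. The median difference of the 10 was 0.34, 0.17 and 0.34 on days 3, 7 and 14, beside 0.03, 0.01 and 0.03 over all genes. The median of the 10 without the 2 libraries was 0.11, 0.11 and 0.14, beside 0.02, 0.00 and 0.02. Without the 2 libraries, 2 of 10 were called on day 3 (Gal higher, Calcb lower), 2 on day 7 (Gal and Npy higher) and 3 on day 14 (Gal and Npy higher, Calcb lower). The same fit called 7.07%, 1.11% and 4.71% of all genes. In the mean of the injured days it called Gal, Npy and Calcb, and 4.41% of genes. Markers of other cells differed in the same fit. Of 6 oligodendrocyte markers 6 were lower on days 3 and 14 and 3 were higher on day 7. Of 6 microglia markers 4, 4 and 3 were higher on days 3, 7 and 14, and of 5 blood cell markers 3, 4 and 3, with 1 lower on day 14. Their part in the results for the precursors was not tested.

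Between injured days 0 of 10 passed with 12 libraries. Limma called 0.0129% of all genes for day 7 against day 3, 0.0129% for day 14 against day 3 and 0.0321% for day 14 against day 7, and at an unadjusted p below 0.05 the members' counts were 0, 1 and 2, beside 4.05%, 1.75% and 4.46% of all genes. Without the 2 libraries the shares of all genes were 2.04%, 1.99% and 2.69%, and Npy on day 14 against day 3 was the 1 precursor gene called. By ranges alone, 5 of 10 genes lay wholly above sham on day 3 (Gal, Tac1, Nts, Adcyap1 and Vip), as did 13.4% of all genes, and 0 lay wholly below, against 7.48%. On day 14, 5 lay wholly above (Gal, Npy, Tac1, Sst and Adcyap1), against 12.2%, and 0 below, against 6.12%. On day 7 none of the 10 lay wholly above or below, against 2.78% and 1.66% of genes.

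The genes whose 4 group means, centred on their own mean, lay nearest to those of the 3 most variable precursors were named by root mean square difference, over 12085 candidate genes. Those nearest to Gal were Eno1b, at a difference of 0.19, Tubb6 at 0.207, Mir8114 at 0.271, Ctla2a at 0.287 and Septin2 at 0.326. Nearest to Npy were Snord32a, Lst1, Pcdhga4, Sco2 and Rpl30-ps9, from 0.109 to 0.143. Nearest to Cck were Plk5, Crip1, Gaa, Adra2c and Rpl36-ps2, all within 0.0279. The 4 group means include the 2 libraries that stood apart.

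Levels of the receptors for these peptides ranged widely. Ntsr2 and Sort1, which bind neurotensin, averaged 51.8 and 40.9 FPKM, the PACAP receptor Adcyap1r1 34, and Ramp1, a subunit of the receptor for calcitonin gene-related peptide, 17.9. Of 29 receptor genes 19 reached the filter, 0 were called on any day with 12 libraries, and the median difference was 0.00 on day 3, -0.03 on day 7 and 0.00 on day 14, or 0.00, 0.01 and -0.02 without the 2 libraries. For galanin, Galr1 averaged 0.569 FPKM, Galr2 0.0178 and Galr3 0.0834. For neuropeptide Y, Npy1r averaged 3.42, Npy2r 0.932 and Npy5r 1.84, and the substance P receptor Tacr1 averaged 3.08. Npy5r was 0.36 ± 0.12 higher and Galr1 0.23 ± 0.10 higher on day 3 (log2, SE; limma adjusted p = 0.693 and 0.695), and 0.32 ± 0.12 and 0.30 ± 0.09 without the 2 libraries (0.148 and 0.0875). Vipr2, a receptor for VIP and PACAP, was the 1 receptor called without the 2 libraries, lower by -0.48 ± 0.10 on day 3 (limma adjusted p = 0.0207). That fit called 7.07% of all genes on day 3.

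Of 20 genes for peptide processing and dense-core vesicles, 0 were called with 12 libraries on any day. Without the 2 libraries, 2 were higher and 1 lower on day 3, none on day 7, and 4 higher and 1 lower on day 14, all by small amounts. That fit called 7.07%, 1.11% and 4.71% of all genes on days 3, 7 and 14. Cpe, the carboxypeptidase that trims peptide ends, was higher by 0.08 ± 0.02 on both days 3 and 14 (limma adjusted p = 0.0175 and 0.0241). Vgf, a granin family precursor, was lower by -0.19 ± 0.02 and -0.09 ± 0.02 (0.00114 and 0.0388). Of 8 tested peptide-degrading enzymes 0 were called in either fit. Among 16 tested of 36 other neuropeptide precursors, 0 were called with 12 libraries, with medians of 0.32, 0.14 and 0.31 on days 3, 7 and 14, close to those of the 10 genes. Their medians without the 2 libraries were 0.06, 0.07 and 0.07. Penk, the enkephalin precursor, averaged 92.1 FPKM and was higher by 0.20 ± 0.02 on day 3 and 0.17 ± 0.02 on day 14 in that fit (limma adjusted p = 0.00139 and 0.00571). Pdyn, the dynorphin precursor, was higher by 0.27 ± 0.05 on day 3 (0.023).

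Genes known from axotomised neurons did pass with all 12 libraries. Of 14, 2 were called higher on day 3, 4 on day 7 and 4 on day 14, beside 0.0578%, 0.103% and 0.0514% of all genes. Atf3, the stress transcription factor of cut neurons, was higher by 2.89 ± 0.13, 3.33 ± 0.13 and 2.79 ± 0.13 (limma adjusted p = 1.03e-05, 2.49e-06 and 1.47e-05), and Sprr1a, a protein of regrowing axons, by 3.87 ± 0.32, 4.96 ± 0.32 and 5.07 ± 0.32 (0.00178, 0.000106 and 8.48e-05). Anxa10 and Gpr151 completed the calls on days 7 and 14. The counts without the 2 libraries were 6, 8 and 7, beside 7.07%, 1.11% and 4.71% of all genes.

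The m6A data were deposited as 1 peak list per group, with no replicate of a peak, so they are described without a test. A peak is a stretch where the enriched libraries held more signal than the input, and its fold enrichment and p are the authors' values. In the sham list 4 of the 10 genes had a peak, against 74.4% of tested genes, in the day 3 list 9 (85.5%), in the day 7 list 5 (76.6%) and in the day 14 list 7 (85.1%). The lists hold 32669, 40195, 34136 and 38655 peaks in that order, and the 2 longer lists are those with more of the 10 genes. Adcyap1, Calca, Sst and Cck had a peak in all 4 lists, Npy in the 3 injured lists, Nts and Vip on days 3 and 14, and Gal and Tac1 on day 3 alone. The day 7 peak of Cck was weak, with a base 10 logarithm of the false discovery rate of -1.09. Calcb had none in any list. Among 3506 genes of 10 to 50 FPKM, 76.4% had a peak in the sham list, beside 2 of the 4 precursors in that range, and on days 3 and 14 the share was 89.8% on each day, beside 4 of 4. On day 7 it was 78.4%, beside 3 of 4. Among 3124 genes of 5 to 10 FPKM the share was 81.5% in sham, beside 1 of the 4 precursors in that range. There it was 90.9% on day 3, beside 3 of 4, 83.0% on day 7, beside 1 of 4, and 90.8% on day 14, beside 1 of 4.

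All 31 peaks of these genes lay below the median fold enrichment of their own list, which was 6.03 in sham, 4.54 on day 3, 5.37 on day 7 and 4.52 on day 14. The 16 annotated to a 5′ UTR and the 15 to a 3′ UTR ranged from 1.43 to 4.51. The strongest was that of Adcyap1 at its first bases (chr17:93199017-93199257 in sham, in the coordinates of the deposited lists, whose build is not given in the sources used here), with a fold enrichment of 4.51 in sham, 3.65 on day 3, 2.97 on day 7 and 3.35 on day 14. Sst, at chr16:23889573-23889717 in sham, and Calca, at chr7:114631508-114631685, had theirs at the 3′ end. The fold enrichment was 2.46, 2.97, 2.56 and 3.01 for the Sst peak and 1.76, 2.73, 2.72 and 3.09 for the Calca peak, in sham and on days 3, 7 and 14. Sst also had a 5′ UTR peak at 1.43 on day 3 and 1.57 on day 14. The sham peaks of these 3 genes overlapped a peak of each injured list by at least 50% both ways.

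The other genes had peaks in fewer lists or at changing places. Gal had a single peak of 59 bases at its 3′ end on day 3, with a fold enrichment of 1.94. Npy had a peak at 2.14 on day 3, annotated to the 3′ UTR, whose 4 blocks ran from the first base of the gene to the last. Its peak over the 3′ end alone was at 1.70 on day 7 and 2.17 on day 14. A further Npy peak, at the 5′ end, was at 1.51 on day 14. The sham list held no peak of Npy. Cck had 2 peaks in its 5′ UTR in sham, at 2.85 and 3.49, 1 there on day 3 at 2.21 and on day 7 at 1.83, and a 3′ peak on day 3 at 2.05 and day 14 at 1.72. Vip had 1 peak near its start, at 3.39 on day 3 and 3.08 on day 14, and Nts and Tac1 had peaks of 1.46 to 2.34. Under a stricter threshold, a fold enrichment of at least 2 and p of at most 1e-05, 3 genes were left in the sham list (Adcyap1, Cck and Sst) and 6, 3 and 4 in those of days 3, 7 and 14. The share of all tested genes left at this threshold was not computed, so these counts cannot be set beside it.

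**Figure D4:**
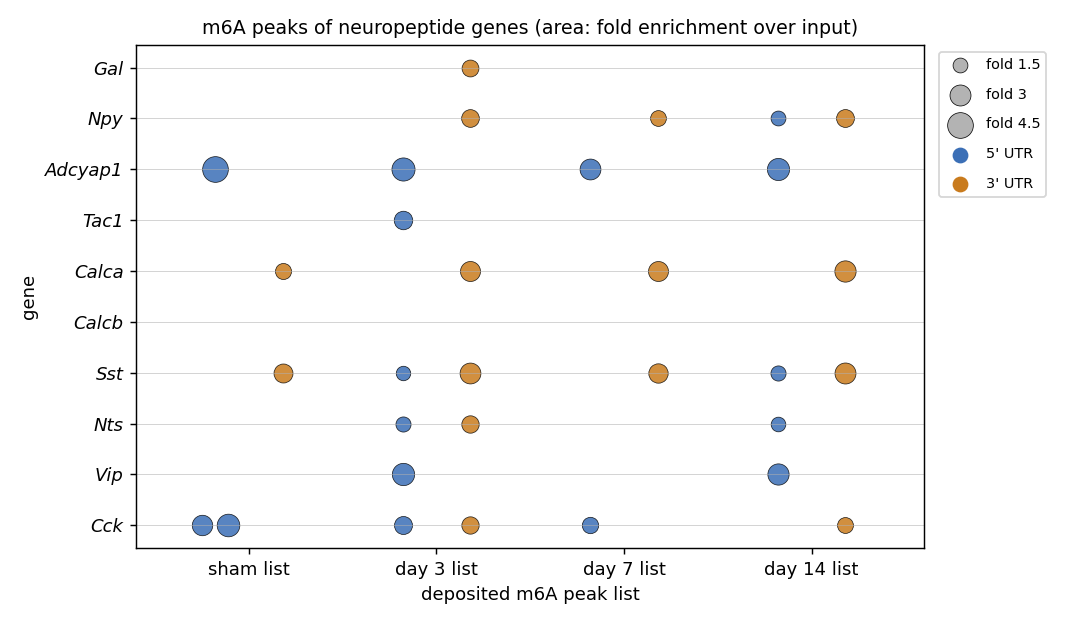
Deposited m6A peaks of the 10 precursor genes (rows) in the 4 peak lists (columns), blue where annotated to the 5′ UTR and orange to the 3′ UTR, with an area proportional to fold enrichment over input. Adcyap1, Calca, Sst and Cck have a peak in all lists, Calcb in none, and the largest symbol is that of Adcyap1 in sham at 4.51. The day 7 peak of Cck is weak, with a base 10 logarithm of the false discovery rate of -1.09.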

How the data were processed

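Expression was measured in 12 input libraries, given by the authors as FPKM per gene, per the file headers; depth is unknown, so no counting interval or floor could be given. The deposited peak lists give, per the file headers, a fold enrichment (a ratio), base 10 logarithms of p and false discovery rate, used here as scores, and block widths. Per the submitters' processing notes HISAT2, StringTie, ChIPseeker and edgeR were used; their settings, the peak caller, the build and any pooling of replicates for peaks are unstated (not given in the sources used here). The enriched libraries were read only through the peak lists.

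Genes with a mean of at least 0.5 FPKM (15564) were fitted as log2(FPKM + 0.5), a scale that understates changes of low genes, in limma 3.58.1 (R 4.3.3; a linear model of 4 group means and empirical Bayes moderation with a trend), with Benjamini-Hochberg adjustment over all genes in each of 7 contrasts and a threshold of 0.05. Peaks were compared with bedtools 2.31.1 on the same strand, with starts converted to count from 1. The fit was tested on simulated data whose spread was taken from the 10 libraries. That test therefore does not cover the 2 libraries that stood apart. Members, lists, tests and the choice to repeat the fit without 2 libraries were made with earlier results of these data known. All members are named; of other lists those that passed, else up to 4 with the smallest p, and the peptide receptors and ganglion markers given by level alone were named after their values were seen. All 10 identifiers had the same symbol in the reference table. Alternatives covered pseudocount, filter, scaling, weights, moderation, a replicate block and each library left out.

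Same-numbered libraries deviated together in sham and day 7, with correlations of 0.459, 0.534 and 0.793, where number 3 is the library that stood apart in each. Deviations were taken from group means that include number 3, so the values for numbers 1 and 2 are not separate from it. Libraries of unlike number were not compared, so these values cannot show a pairing by number. The labels give no source for a pairing. Other pairs of groups did not all exceed 0.1.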

Additional observations from a re-analysis of the deposited data

How the results depend on the processing

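With all 12 libraries 0 precursor genes passed on day 3, 7 or 14, in the mean of the injured days or between injured days. Without sham library 3 and day 7 library 3, and likewise with array weights, the counts were 2, 2, 3, 3 and 1. With any single library left out they stayed at 0, and fitting only the groups compared gave 1 between injured days, Npy. Pseudocount, filter, scaling and robust moderation left them at 0. Of the sham peaks, 3 were shared with every injured list, and 0 where the overlap had to reach 80%.

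The replicate block left the count at 0 in each comparison. For sham and day 7 alone, blocked by number (added after seeing the data), Gal was 1.29 ± 0.09 higher (limma adjusted p = 0.174), Npy 0.51 ± 0.07 (0.454) and Calcb -0.27 (0.693), so no call changed.

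Directions turned in 5 genes, none of which passed with 12 libraries. Over the fits that leave libraries out, the log2 difference ranged for Calca from -0.18 to 0.54 on day 7 and -0.03 to 0.56 on day 14, for Calcb from -0.58 to 0.09 on day 3, -0.68 to 0.10 on day 7 and -0.51 to 0.15 on day 14, for Sst from -0.27 to 0.53 on day 7, for Vip from -0.13 to 0.12 on day 14, and for Cck from -0.12 to 0.53 on day 3 and -0.58 to 0.19 on day 7. With array weights Calca was -0.02 on day 14 and Cck -0.10 on day 3. With near-identical libraries averaged, Calcb was 0.04 on day 3 and 0.10 on day 14 and Vip -0.01 on day 14, as Vip also was with quantile scaling. The cause was not tested.

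The standard error of Gal on day 3 was 0.39 with 12 libraries and 0.10 with 10, where sham has 2 libraries.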
